A study of Homo sapiens with 6 samples.

Results

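The sirtuin family, SIRT1 to SIRT7, was followed in HK2 cells, an established immortalised cell line from the proximal tubule of the human kidney. The members were taken by gene symbol, which gave 7 genes of the 38100 in the deposited tables, and all 7 had enough counts to be among the 17720 genes tested. In AdSirt4 the cells had received an adenovirus for SIRT4, and in AdCtrl an adenovirus with an empty vector. Cells of both groups were wild type in the labels and were stimulated with TGF-β1, a cytokine that drives fibrosis, so the data hold no unstimulated and no uninfected sample. RNA selected by its poly(A) tail was sequenced from 3 samples a group. The virus was left on the cells for 6 hr according to the methods of the study, while the promoter and the insert sequence of the virus and the dose and duration of TGF-β1 for these samples are not given in the sources used here. The comparison asks what SIRT4 overexpression changed in stimulated tubular cells, and for the family it asks whether the levels of the other members moved with it.

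Sirtuins are enzymes that use NAD as a co-substrate to remove acetyl and other acyl groups from lysines, or to transfer ADP-ribose. SIRT1, SIRT6 and SIRT7 are mainly nuclear, SIRT2 is mainly cytosolic, and SIRT3, SIRT4 and SIRT5 are known as mitochondrial enzymes. In the kidney the family is known for its part in mitochondrial metabolism, stress resistance and fibrosis of the tubules.

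All members share a catalytic core with an active-site histidine. The stretches below show that core in each coding strand and let the difference between the members be seen at the level of the reads. They were taken from the GENCODE v29 transcript with the longest coding sequence of each gene (GRCh38) and run 5′ to 3′, with the codon of the histidine in capitals.
SIRT1, histidine 363, plus strand, chr10:67906922-67908056 with an intron between the ends: ataattcagtgtCATggttcctttgca
SIRT2, histidine 187, minus strand, chr19:38883685-38883711: ttggtggaggcgCACggcaccttctac
SIRT3, histidine 248, minus strand, chr11:230503-230529: ctggttgaagctCATggaacctttgcc
SIRT4, histidine 161, plus strand, chr12:120304030-120304056: ctgacagagctcCACggatgcatggac
SIRT5, histidine 158, plus strand, chr6:13591879-13595487 with an intron between the ends: cttctggagatcCATggtagcttattt
SIRT6, histidine 133, minus strand, chr19:4177105-4177131: ctggcagagctcCACgggaacatgttt
SIRT7, histidine 187, minus strand, chr17:81914610-81914636: atctccgagctcCACgggaacatgtac

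All of these stretches lie in coding exons. Of the 27 bases, SIRT4 shared 20 with SIRT6, 19 with SIRT7 and between 12 and 14 with each of the remaining 4. Over the whole transcripts the longest run of identical bases between SIRT4 and another member was between 10 and 15 bases, and the longest between any 2 members was 19 bases, for SIRT6 and SIRT7. No 2 members are therefore near-identical copies of each other in these transcripts.

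Total counts lay between 41537353 and 85684748 per sample, and 3 counts, the limit set by a count of 0, were between 0.035 and 0.0722 CPM (counts scaled to the size of the library). AdSirt4 replicates 2 and 3 had 85684748 and 80040053 counts, AdSirt4 replicate 1 had 41537353, and AdCtrl had 42102861 to 53677241. Depth therefore follows the group in every fit without AdSirt4 replicate 1. AdSirt4 replicate 1 stood apart from the other libraries. It received a weight of 0.0795 when limma weighted the samples by quality, against 0.984 to 2.92 for the others, and its deviation from the other AdSirt4 samples followed transcript length, so values that moved by over 1.5 times, or calls that changed, are given without it too. The tubular markers KRT8, KRT18, EPCAM, PAX8 and GGT1 were read at between 50.9 and 411 FPKM (fragments per kilobase of transcript, scaled to the size of the library) on average in AdCtrl. Of the 15 tubular markers, LRP2, CUBN, AQP1 and ANPEP, which mark the proximal brush border, lay under 0.1 FPKM there, and CDH1 was at 0.119 FPKM. Of the markers of fibroblasts, endothelium, blood cells and podocytes, 13 of 15 lay under 0.1 FPKM in AdCtrl, with LUM at 5.32 and CD68 at 18.2 FPKM as the exceptions. None of these markers passed the test between the groups.

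SIRT4 was the lowest member in AdCtrl and the highest in AdSirt4. SIRT4 (gene ID 23409; chr12:120302316-120313249, plus strand, 4 exons in SIRT4-201) is known to ADP-ribosylate glutamate dehydrogenase and to remove lipoyl groups from pyruvate dehydrogenase. It had 31, 47 and 57 counts in AdCtrl replicates 1, 2 and 3 and 1996, 7995 and 6827 counts in AdSirt4. On the FPKM scale these were 0.423, 0.716 and 0.732 in AdCtrl and 28.9, 64.7 and 53.8 in AdSirt4. The groups lay far apart, and all 6 samples matched their labels. AdSirt4 replicate 1 was the lowest of the 3 samples with the SIRT4 virus and lay far above the highest control. More cells with the virus and more SIRT4 RNA per cell cannot be told apart in these bulk samples. By rank among all 38100 genes SIRT4 moved from between 12838 and 13714 in AdCtrl to between 857 and 2340 in AdSirt4.

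In the edgeR quasi-likelihood fit, SIRT4 rose from 0.930 ± 0.309 to 76.0 ± 21.9 CPM (SD, n = 3 in each group), a log2 fold change of 6.36 (SE 0.36, 95% CI 5.52 to 7.21), which is 82.3-fold with an interval from 45.9 to 147.8, with an edgeR adjusted p of 0.00801. In this fit edgeR called 2 of the 17720 genes tested, or 0.0113%, and the other gene was ADAMTS1. A fit that blocked on replicate number called 1 gene, SIRT4, with an edgeR adjusted p of 3.13e-04. Without AdSirt4 replicate 1 the log2 fold change of SIRT4 was 6.58 (95% CI 6.22 to 6.95), and edgeR then called 1227 of 18287 genes, or 6.71%. Leaving out an AdCtrl sample kept the log2 fold change between 6.10 and 6.52 and took the edgeR adjusted p of SIRT4 to 0.0559, 0.203 and 0.186 without replicates 1, 2 and 3. A two-sided exact permutation test of SIRT4 gave p = 0.1, the smallest value that 3 samples against 3 allow when they are not paired.

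The spread of SIRT4 between samples was the widest of the family in both groups. Its coefficient of variation in CPM was 33.2% in AdCtrl, where counting alone gives 15.4%, and 28.8% in AdSirt4, where counting alone gives 1.61%. For the other 6 members it lay between 0.708% and 6.08% in AdCtrl and between 4.15% and 21.8% in AdSirt4.

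**Figure D1:**
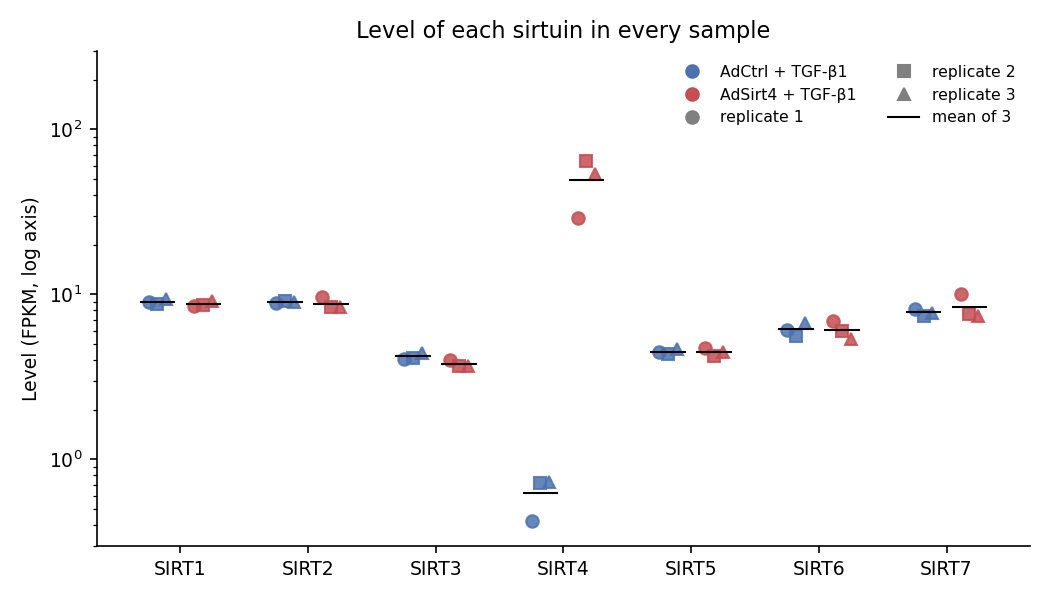
Level of each sirtuin in FPKM on a log axis, for 3 AdCtrl samples (blue) and 3 AdSirt4 samples (red), all stimulated with TGF-β1; marker shapes stand for the replicate and black lines for the mean of 3. SIRT4 lies between 0.423 and 0.732 FPKM in AdCtrl and between 28.9 and 64.7 FPKM in AdSirt4, while for the other members the groups overlap, except SIRT3, whose 3 AdSirt4 samples at 3.66 to 4.02 FPKM lie just under the controls at 4.085 to 4.445 FPKM.

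None of the other 6 sirtuins passed the test, and for each of them the CPM of the groups overlapped. In CPM the groups did not overlap for 19.4% of all genes tested. The log2 fold changes of the 6 members lay between -0.12 and 0.15, beside a median of 0.02 over all genes tested, with edgeR adjusted p between 0.753 and 0.979. The 95% intervals ran from -0.35 to 0.53 at their widest, and a fold above 1.45 or below 0.787 lay outside the interval of each of the 6. The unadjusted edgeR p lay between 0.244 and 0.938, whereas 7.93% of all genes tested had an unadjusted edgeR p under 0.05.

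Among the nuclear members, SIRT1 (gene ID 23411; chr10:67884669-67918390, plus strand) deacetylates transcription regulators such as p53 and the FOXO factors. It was at 41.67, 41.36 and 41.95 CPM in AdCtrl and at 42.55, 39.34 and 41.98 CPM in AdSirt4, and no sample stood apart. The log2 fold change of SIRT1 was -0.01 (95% CI -0.21 to 0.19), the narrowest interval of the family, and -0.04 without AdSirt4 replicate 1. In AdCtrl its coefficient of variation, 0.708%, was below the 2.22% of counting alone.

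SIRT6 (gene ID 51548; chr19:4174109-4182604, minus strand) acts on chromatin and in DNA repair. It was at 11.02, 10.36 and 11.70 CPM in AdCtrl and at 13.52, 10.81 and 9.47 CPM in AdSirt4, so that AdSirt4 held both the highest and the lowest sample. SIRT6 had a log2 fold change of 0.03 (95% CI -0.33 to 0.38) with all samples and -0.13 (95% CI -0.34 to 0.09) without AdSirt4 replicate 1.

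SIRT7 (gene ID 51547; chr17:81911939-81921323, minus strand) is the nucleolar member and is known to act on ribosomal RNA transcription. It was at 16.70, 15.68 and 15.01 CPM in AdCtrl and at 22.02, 15.55 and 15.22 CPM in AdSirt4. Only AdSirt4 replicate 1 lay above the controls. The log2 fold change of SIRT7, 0.15 (95% CI -0.23 to 0.53), was the highest of the 6 and turned to -0.04 (95% CI -0.21 to 0.13) without that library.

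SIRT2 (gene ID 22933; chr19:38878555-38899862, minus strand), the mainly cytosolic member, deacetylates tubulin. It was at 18.44, 19.65 and 17.95 CPM in AdCtrl and at 21.58, 17.56 and 17.34 CPM in AdSirt4. AdSirt4 replicate 1 was above all controls and the other 2 AdSirt4 samples were below all of them. SIRT2 had a log2 fold change of 0.01 (95% CI -0.27 to 0.29), and -0.10 (95% CI -0.26 to 0.06) without AdSirt4 replicate 1.

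Among the mitochondrial members, SIRT3 (gene ID 23410; chr11:215458-236931, minus strand) is the main deacetylase of the mitochondrial matrix. It was at 14.2, 14.8 and 14.9 CPM in AdCtrl and at 14.3, 13.1 and 12.9 CPM in AdSirt4. AdSirt4 replicates 2 and 3 lay below every control, and replicate 1 lay among them. On the FPKM scale SIRT3 was at 4.085, 4.095 and 4.445 in AdCtrl and at 4.020, 3.675 and 3.660 in AdSirt4, so the groups did not overlap there, as for 17.2% of all genes tested. The log2 fold change of SIRT3 was -0.12 (SE 0.10, 95% CI -0.35 to 0.10, edgeR adjusted p = 0.753), the lowest of the family. Without AdSirt4 replicate 1 it was -0.17 (95% CI -0.34 to -0.01) with an edgeR adjusted p of 0.191. SIRT4 was the one sirtuin called in that fit.

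SIRT5 (gene ID 23408; chr6:13574529-13615158, plus strand) removes succinyl, malonyl and glutaryl groups. It was at 19.9, 18.4 and 19.6 CPM in AdCtrl and at 22.6, 19.0 and 19.3 CPM in AdSirt4, with AdSirt4 replicate 1 again the highest sample. SIRT5 had a log2 fold change of 0.07 (95% CI -0.18 to 0.32), and -0.02 (95% CI -0.17 to 0.14) without that library. The groups of SIRT5 overlapped with and without it.

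**Figure D2:**
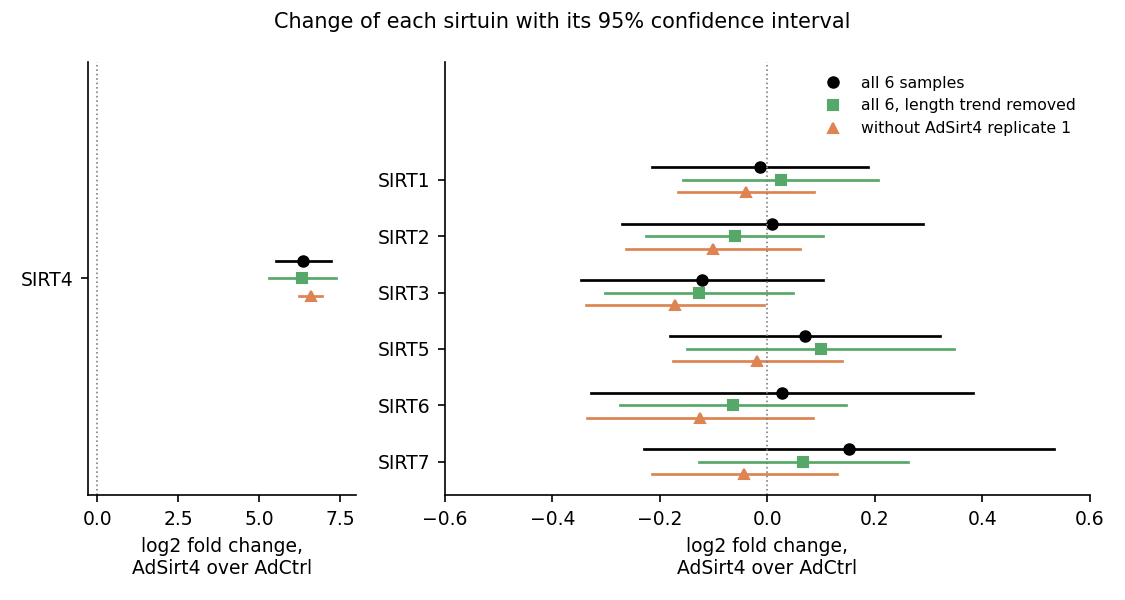
Log2 fold change of AdSirt4 over AdCtrl in CPM with its 95% confidence interval from edgeR, for SIRT4 (left panel) and the other 6 members (right panel, on its own finer scale); symbols stand for the fit on all 6 samples, the same fit with the trend of each library on transcript length removed, and the fit without AdSirt4 replicate 1. The intervals of SIRT4 lie above 5.30, and those of the other 6 members include 0 in every fit but that of SIRT3 without AdSirt4 replicate 1, which ends at -0.01.

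AdSirt4 replicate 1 differed from AdSirt4 replicates 2 and 3 in the order of transcript length. Over 5 equal classes of all genes with a mean of at least 1 CPM, from the shortest to the longest transcripts, the median difference in log2 CPM was 0.59, 0.25, 0.00, -0.23 and -0.54. Among the sirtuins the short SIRT7, SIRT6 and SIRT2 differed by 0.52, 0.42 and 0.31, and the longer SIRT5, SIRT3 and SIRT1 by 0.24, 0.14 and 0.07. The medians of their length classes were 0.59 for SIRT7, SIRT6 and SIRT2, 0.00 for SIRT5 and SIRT3, and -0.23 for SIRT1. SIRT5, SIRT3 and SIRT1 thus lay above the median of their class, and SIRT7, SIRT6 and SIRT2 below it. SIRT4, with the shortest transcript of the family, differed by -0.79, against 0.59 for the median gene of its length class. The part of length in the difference of each gene was not tested. With the length trend removed from each library, the log2 fold changes of the 6 members lay between -0.13 for SIRT3 and 0.10 for SIRT5, and that of SIRT4 was 6.34.

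**Figure D3:**
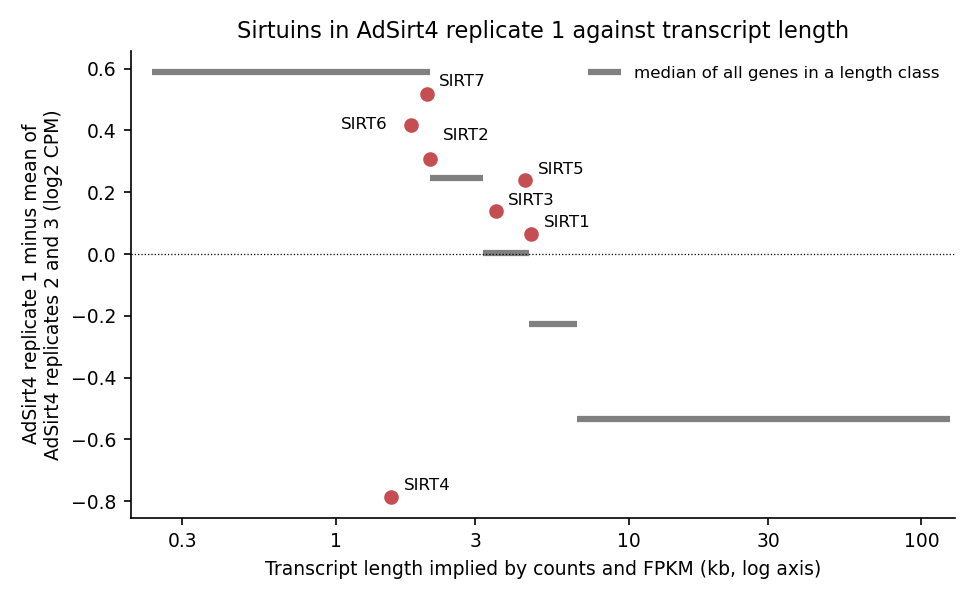
Difference in log2 CPM between AdSirt4 replicate 1 and the mean of AdSirt4 replicates 2 and 3 (vertical axis) against the transcript length in kb implied by counts and FPKM (log axis), for the 7 sirtuins (red points) and for the median of all genes in 5 equal length classes (grey bars). The median runs from 0.59 for the shortest to -0.54 for the longest class, the 6 other sirtuins lie between 0.07 and 0.52, and SIRT4 lies at -0.79.

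Levels of different members were compared per length, in FPKM, as means of 3 samples with their SD. In AdCtrl, SIRT1 at 9.02 ± 0.36 and SIRT2 at 8.98 ± 0.15 FPKM came first and could not be ordered, since SIRT1 was above SIRT2 in 2 of 3 samples. SIRT7 followed at 7.77 ± 0.41 and SIRT6 at 6.15 ± 0.56 FPKM, each separated from its neighbours in all 3 samples. SIRT5 at 4.50 ± 0.14 and SIRT3 at 4.21 ± 0.21 FPKM had overlapping ranges, although SIRT5 was the higher in all 3 samples. SIRT4 came last at 0.624 ± 0.174 FPKM, and SIRT3 was between 5.72 and 9.66 times as high in the same sample.

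In AdSirt4, SIRT4 came first at 49.1 ± 18.3 FPKM. The insert of the virus is not given, so the length that fits SIRT4 reads of the virus is unknown. The FPKM of SIRT4 in AdSirt4, and its ratios and shares in the family, carry this limit. It was between 2.86 and 8.45 times as high as SIRT7, and between 7.19 and 17.6 times as high as SIRT3, in the same sample. SIRT2 at 8.77 ± 0.70, SIRT1 at 8.76 ± 0.35 and SIRT7 at 8.38 ± 1.49 FPKM overlapped and could not be ordered. SIRT6 at 6.10 ± 0.78, SIRT5 at 4.46 ± 0.26 and SIRT3 at 3.79 ± 0.20 FPKM followed in this order in all 3 samples.

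As a share of the summed FPKM of the family, SIRT4 made up 1.03, 1.79 and 1.72% in AdCtrl and 39.7, 62.7 and 58.4% in AdSirt4. The mean share of SIRT4 was 1.51% ± 0.42 against 53.6% ± 12.2 (SD, n = 3), with a two-sided exact permutation p of 0.1. The summed FPKM of the whole family was 41.3 ± 1.32 in AdCtrl and 89.4 ± 15.5 in AdSirt4. The sum of the 6 members without SIRT4 was 40.6 ± 1.31 in AdCtrl and 40.3 ± 3.10 in AdSirt4, with an exact permutation p of 0.8, and its groups overlapped.

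By the compartment for which the members are known, the mitochondrial members made up between 21.9 and 23.0% of the family in AdCtrl and between 51.7 and 70.3% in AdSirt4. Without SIRT4, the mitochondrial pair SIRT3 and SIRT5 summed to 8.59, 8.45 and 9.08 FPKM in AdCtrl and 8.75, 7.89 and 8.11 FPKM in AdSirt4, with an exact permutation p of 0.3. The nuclear SIRT1, SIRT6 and SIRT7 summed to 22.9 ± 1.11 FPKM in AdCtrl and 23.2 ± 1.97 FPKM in AdSirt4, with an exact permutation p of 0.8. These compartments are those of the proteins, and the location of the proteins in these cells was not measured here. For SIRT4 the study reported that TGF-β1, given to both groups here, moved it out of mitochondria to the cytoplasm and the nucleus. The mitochondrial share with SIRT4 is therefore a share by the usual compartment only.

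Within the 6 members without SIRT4, SIRT3 was the one whose share did not overlap between the groups. Its share was 10.04, 10.42 and 10.60% in AdCtrl and 9.17, 9.53 and 9.54% in AdSirt4, so all AdSirt4 samples, replicate 1 included, lay below all controls, with an exact permutation p of 0.1, the smallest that unpaired samples allow. This is 1 of 6 members. In plain FPKM, which is another measure, the groups did not overlap for 17.2% of all genes tested. No such rate was computed for shares. The shares of the other 5 overlapped, with exact permutation p between 0.3 and 1. These are 6 tests on shares that sum to a fixed total, and no p was adjusted over them.

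The SIRT4 reads of AdSirt4 can come from the virus or from the gene of the cell, and counts per gene cannot tell these apart. The transcript length implied by the counts and FPKM of a gene was compared too, scaled so that the median gene is equal between libraries. This length depends on the transcripts to which the reads were assigned. The insert of the virus is not given, so the length cannot tell these sources apart. For SIRT4 it was 1.36, 1.51 and 1.58 kb in AdCtrl and 1.65, 1.45 and 1.59 kb in AdSirt4, so the groups overlapped and the exact permutation p was 0.5. In AdCtrl this length rests on the 31 to 57 counts above. The annotated transcript of SIRT4 has 1217 bases, of which 942 are coding. The kb scale of the implied length was not calibrated. For each of the other 6 members the median implied length also lay above the annotated transcript, as for SIRT1 at 4.66 kb against 4094 bases. The implied length is therefore compared between the groups only. For the other 6 members the implied length also overlapped between the groups, with log2 differences between -0.01 and 0.05 and exact permutation p between 0.3 and 1. The longest was that of SIRT1, at a median of 4.66 kb, and the shortest after SIRT4 that of SIRT6, at 1.81 kb.

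The levels of the genes next to SIRT4 on its chromosome were read too. They cannot show whether the SIRT4 reads came from the virus or from the gene of the cell. On the side of its start, PXN, which encodes the adaptor paxillin, lies 36545 bases away and was at 202, 203 and 204 CPM in AdCtrl and at 152, 195 and 181 CPM in AdSirt4. The groups of PXN did not overlap, and its log2 fold change was -0.20 (SE 0.12, edgeR adjusted p = 0.707), with -0.11 without AdSirt4 replicate 1. RPLP0, a protein of the large ribosomal subunit, lies 101081 bases away, and its log2 fold change was 0.14 (SE 0.20, edgeR adjusted p = 0.834), with -0.11 without AdSirt4 replicate 1. On the other side, PLA2G1B, 8862 bases away, had between 0 and 4 counts in each sample, and MSI1, 28081 bases away, between 0 and 6. No fold was computed for these last 2, since their groups lay at or near the limit that a count of 0 allows.

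Some exons of the family overlap other genes, and whether the counting used strand is not given in the sources used here. For SIRT5, 16.1% of its annotated exon bases overlap AL441883.1 on the opposite strand, and for SIRT3 6.08% overlap PSMD13 on the opposite strand. SIRT7 shares 1.71% with MAFG, on its own strand, and SIRT2 0.643% with NFKBIB and SIRT4 0.982% with RNU6-1088P, on the opposite strand. SIRT1 and SIRT6 overlap no annotated gene. If the counting ignored strand, SIRT5 and SIRT3 have the largest share of bases open to reads of another gene. If it used strand, only the overlap of SIRT7 with MAFG would matter.

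The genes around the family were grouped into 5 lists drawn up from textbook knowledge, with no member past an edgeR adjusted p of 0.05 in any of them. Their medians lay between -0.12 and 0.03, against 0.02 over all genes tested, and between -0.07 and 0.01 without AdSirt4 replicate 1, against 0.00. The lists cover the supply of NAD, the other enzymes that use it up, the zinc-dependent deacetylases, and the known targets and partners of SIRT4 and of the other sirtuins. In this order, 3 of 21, 3 of 18, 2 of 11, 2 of 17 and 6 of 19 tested members had CPM without overlap. The share over all genes tested was 19.4%. The levels of these genes are of the RNA, while sirtuins act on their targets as proteins.

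Of the 26 genes of NAD synthesis and transport, 21 were tested, 11 with a log2 fold change above 0 and 10 below, with a median of 0.02 and of -0.07 without AdSirt4 replicate 1. QPRT, which makes the NAD precursor nicotinic acid mononucleotide from quinolinic acid, was the highest at 152.5 FPKM in AdCtrl, and IDO1, IDO2, TDO2, HAAO and SLC25A52 lay under 0.1 FPKM. NNT, the mitochondrial transhydrogenase that passes hydride between NADH and NADP, was at 143, 135 and 140 CPM in AdCtrl and at 93.2, 111 and 115 CPM in AdSirt4. The groups of NNT did not overlap, and its log2 fold change was -0.39 (SE 0.11, edgeR adjusted p = 0.509), with -0.31 and an edgeR adjusted p of 0.00974 without AdSirt4 replicate 1. NNT was the 1 of 21 members called in that fit, beside 6.71% of all genes. KYNU, which cleaves kynurenines, was at 2.54 ± 0.04 CPM in AdCtrl and 3.76 ± 0.37 CPM in AdSirt4, a log2 fold change of 0.56 (edgeR adjusted p = 0.494). The log2 fold changes of KMO, an earlier enzyme of that pathway, and NADSYN1, NAD synthetase, were 0.80 and 0.16 (edgeR adjusted p = 0.705 and 0.719).

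Of the 20 other NAD-consuming enzymes, 18 were tested, 4 with a log2 fold change above 0 and 14 below, with a median of -0.08 and of -0.01 without AdSirt4 replicate 1. PARP1, the main nuclear poly-ADP-ribose polymerase, was the highest at 86.4 FPKM in AdCtrl, and PARP15 and the NAD hydrolase CD38 lay under 0.1 FPKM. The members with the smallest p were PARP16, TNKS, PARP9 and PARP12, which transfer ADP-ribose, with log2 fold changes of -0.26, -0.38, -0.18 and 0.12 and edgeR adjusted p between 0.656 and 0.744. Without AdSirt4 replicate 1 that of TNKS was -0.16. SARM1, the NAD hydrolase of axon loss, was the one member called without AdSirt4 replicate 1, with a log2 fold change of 0.71 (edgeR adjusted p = 0.0194) and 0.31 with all samples, and was singled out after its values were seen. It is 1 of 18 members, beside 6.71% of all genes called in that fit.

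All 11 zinc-dependent deacetylases, which do not use NAD, were tested, 5 with a log2 fold change above 0 and 6 below, with a median of 0.00 and of 0.01 without AdSirt4 replicate 1. HDAC1 was the highest at 135.8 FPKM in AdCtrl and HDAC4 the lowest at 2.12 FPKM. HDAC7 was at 99.3 ± 6.06 CPM in AdCtrl and 114.7 ± 2.08 CPM in AdSirt4, with groups that did not overlap and a log2 fold change of 0.21 (edgeR adjusted p = 0.630). The log2 fold changes of HDAC5, HDAC2 and HDAC6 were -0.14, 0.22 and -0.21 (edgeR adjusted p between 0.718 and 0.750), and those of HDAC2 and HDAC6 were 0.05 and -0.05 without AdSirt4 replicate 1. HDAC11 was the one member called without AdSirt4 replicate 1, at -0.32 (edgeR adjusted p = 0.0421), and was also singled out after its values were seen. This is 1 of 11 members, beside the same 6.71% of all genes.

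All 17 genes of known SIRT4 targets were tested, 9 with a log2 fold change above 0 and 8 below, with a median of 0.03 and of -0.07 without AdSirt4 replicate 1. They lay between -0.16 and 0.18, and none was called with or without AdSirt4 replicate 1. GLUD1, the glutamate dehydrogenase that SIRT4 modifies, was at 153 ± 5.79 CPM in AdCtrl and 139.9 ± 4.91 CPM in AdSirt4, a log2 fold change of -0.13 (edgeR adjusted p = 0.734) with groups that did not overlap. MCCC1 and MCCC2, the subunits of methylcrotonyl-CoA carboxylase in leucine breakdown, had log2 fold changes of -0.15 and -0.15, and AUH, the next enzyme of that pathway, of 0.12. Without AdSirt4 replicate 1 those of MCCC1, MCCC2 and AUH were -0.21, -0.07 and 0.04. U2AF2, the splicing factor that the study followed as a SIRT4 target, was at 211, 214 and 183 CPM in AdCtrl and at 208, 221 and 199.9 CPM in AdSirt4, a log2 fold change of 0.05 (SE 0.11, edgeR adjusted p = 0.888).

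Of the 21 targets and partners of the other sirtuins, 19 were tested, 7 with a log2 fold change above 0 and 12 below, with a median of -0.12 and of -0.03 without AdSirt4 replicate 1. ACADL, a mitochondrial target of SIRT3, lay under 0.1 FPKM in AdCtrl. SOD2, the mitochondrial superoxide dismutase that SIRT3 deacetylates, was at 1480, 1540 and 1691 CPM in AdCtrl and at 2283, 1971 and 2418 CPM in AdSirt4. The groups of SOD2 did not overlap, and its log2 fold change was 0.50 (SE 0.14, edgeR adjusted p = 0.498), with 0.48 and an edgeR adjusted p of 0.0139 without AdSirt4 replicate 1.

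ACSS2, the cytosolic acetyl-CoA synthetase, was at 83.8, 82.8 and 86.6 CPM in AdCtrl and at 67.7, 70.5 and 67.2 CPM in AdSirt4. Its groups did not overlap and its log2 fold change was -0.30 (SE 0.08, edgeR adjusted p = 0.496), with an adjusted p of 0.00914 without AdSirt4 replicate 1. HIF1A, the oxygen-regulated transcription factor linked to SIRT1 and SIRT6, was at 912, 838 and 942 CPM in AdCtrl and at 620, 734 and 783 CPM in AdSirt4, a log2 fold change of -0.33 (SE 0.13, edgeR adjusted p = 0.612). UBTF, a factor of ribosomal RNA transcription that works with SIRT7, had a log2 fold change of 0.20 (edgeR adjusted p = 0.678). In this list 5 members passed without AdSirt4 replicate 1, with SOD2 and RELA higher and ACSS2, HIF1A and IDH2 lower in AdSirt4, beside the 6.71% of all genes that passed in that fit. RELA and IDH2, at 0.22 and -0.26 there, were singled out after their values were seen.

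**Figure D4:**
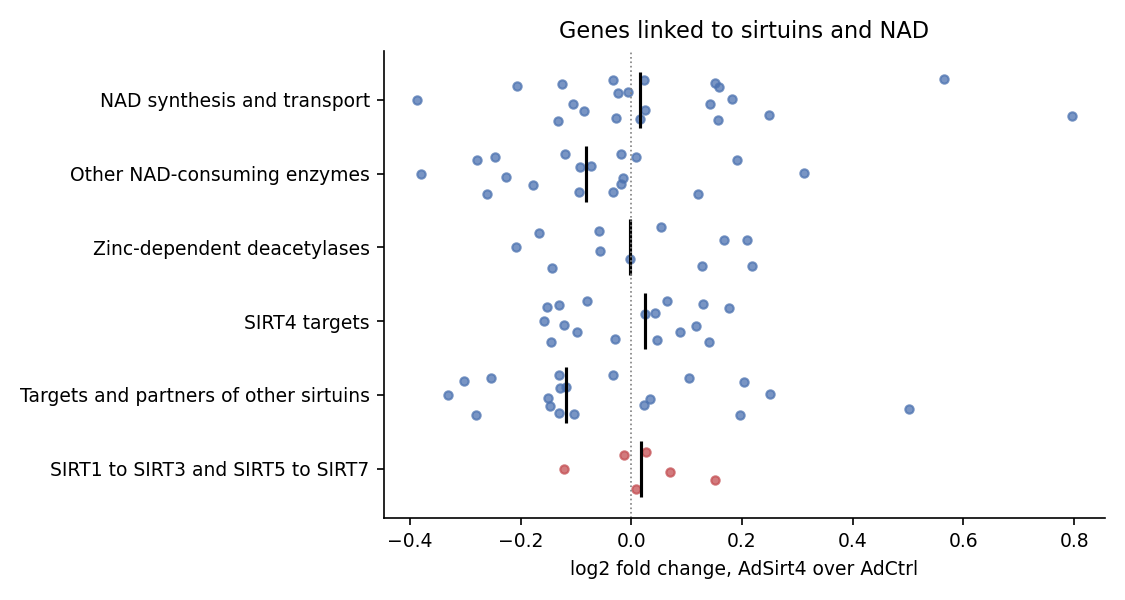
Log2 fold change of AdSirt4 over AdCtrl in the edgeR fit on all 6 samples, for the tested genes of 5 lists (blue points) and for the 6 sirtuins other than SIRT4 (red points); black lines are medians, and the height of a point within its row only separates points. The medians of the lists lie between -0.12 and 0.03, and no gene in the plot passed an adjusted p of 0.05.

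The genes whose pattern over the 6 samples was most like that of SIRT4 were picked by Pearson's r of log2 CPM, among 14101 tested genes with a mean of at least 1 CPM. The samples of the groups form separate clusters for SIRT4, so r mainly reflects the difference between them and is given as the measure of choice, with no p. The highest r, from 0.990 to 0.996, were those of ZNF124, ADAMTS1, NUAK2, PDK1 and OSR1, and SEC23A, LYSMD1, NLRX1 and DCAKD were among those with the lowest r, at -0.9925 to -0.9917. ADAMTS1, a secreted metalloproteinase, was at 37.8, 39.1 and 40.3 CPM in AdCtrl and at 80.1, 80.5 and 77.9 CPM in AdSirt4. PDK1, a kinase that inhibits pyruvate dehydrogenase, was at 32.5, 32.3 and 32.2 CPM in AdCtrl and at 47.3, 52.7 and 49.3 CPM in AdSirt4. None of these genes changed nearly as far as SIRT4, with log2 fold changes between -0.50 for DCAKD and 1.03 for ADAMTS1.

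Of the other sirtuins, SIRT3 had an r of -0.79 with SIRT4 over the 6 samples, and the other 5 had r between -0.25 and 0.26. Here too r mainly reflects the difference between the groups, for SIRT3 a log2 fold change of -0.12 (edgeR adjusted p = 0.753). CCN2, the fibrosis factor that the study followed, was at 347, 349 and 353 CPM in AdCtrl and at 709.8, 527 and 507 CPM in AdSirt4. Its groups did not overlap, and its log2 fold change was 0.73 (SE 0.15, edgeR adjusted p = 0.494), with 0.56 and an edgeR adjusted p of 2.82e-04 without AdSirt4 replicate 1.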

How the data were processed

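Poly(A) RNA of 6 samples, 3 AdCtrl and 3 AdSirt4 by their titles, was sequenced. The authors deposited whole-number counts for each of 38100 genes, with no normalization. The other table the authors deposited was read as FPKM, values scaled to library size and transcript length, from its ratio to the counts, since its unit is not named. The submitters' processing notes list fastp 0.21.0, HISAT2 2.1.0, StringTie 2.1.5, DESeq2 1.30.1 and hg38, and settings are not given in the sources used here. The labels number the cell line differently in each sample, while all titles name HK2. The study states that n in vitro means technical replicates, so p-values may measure technical spread only.

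Counts were tested with edgeR 4.0.16 (R 4.3.3): filterByExpr with a minimum count of 10, TMM scaling (used for CPM too), the robust quasi-likelihood test and Benjamini-Hochberg adjustment over all genes tested at 0.05. Single values were compared with two-sided exact permutation tests (scipy 1.17.1) that did not use the pairing below; paired, 3 samples a group could not reach a p under 0.25. Depth limits cover counting error only. Alternatives used DESeq2 1.42.0 and limma 3.58.1, with pseudocounts of 1 and 0.1 for FPKM. The procedure was tested on simulated data.

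Deviations from the group means correlated across genes at 0.178, 0.159 and 0.176 between samples with the same replicate number and at -0.188 to 0.0298 otherwise. Deviations within a group sum to 0, so positive values for some pairs force negative ones for others. The numbers in the titles were therefore read as a possible pairing of the samples. The main edgeR fit did not use it, and fits with the replicate block are given as alternatives.

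Members and lists were chosen with earlier results of these data known. Genes named outside the family were 4 genes per list, those of smallest p, and those near 0, the 2 nearest coding genes on each side of SIRT4, 5 genes each at the top and bottom of the correlation with SIRT4, and the 2 that the study followed; a few of these are not reported here. Marker lists are given as counts and levels.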

Additional observations from a re-analysis of the deposited data

How the results depend on the processing

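The number of genes with an adjusted p under 0.05 was 2 in the edgeR fit and 2 with RLE size factors. It was 206 with DESeq2, 5 for genes with at least 1 count, 4 when every sample had to hold at least 10 counts, 1 with the replicate block, 0 with limma on log2(FPKM + 1), where SIRT4 had the log2 fold change 4.88 and an adjusted p of 0.0778, and 0 with the replicate block there, with 4.88 and 0.416 for SIRT4. It was 1 with limma on log2(FPKM + 0.1), 5 with limma at a minimum mean FPKM of 1, 12 with the length offset, 6 with the length offset and the replicate block, and 1584 with limma voom and sample quality weights. With 1 sample left out the number lay between 0, without any 1 AdCtrl replicate, and 1227, without AdSirt4 replicate 1, and was 1 without AdSirt4 replicate 2 or 3. The replicate block changed no sirtuin call in the edgeR fits, and ADAMTS1 had an edgeR adjusted p of 0.304 with it.

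The log2 fold change of SIRT4 lay between 4.88 and 6.69 over 18 alternatives and between 6.10 and 6.58 with 1 sample left out. None of the other 6 members passed an adjusted p of 0.05 in any of the 18, and the adjusted p of SIRT3, negative in all 18, lay between 0.144 and 0.971. The signs of the other 5, all near 0, turned. With the length offset SIRT1 was at 0.025, SIRT2 at -0.061 and SIRT6 at -0.064, and with the block added at 0.023, -0.061 and -0.063. In the 3 limma fits on log2(FPKM + 1), the one with the block included, SIRT2 was at -0.033, SIRT5 at -0.010 and SIRT6 at -0.013, and with a pseudocount of 0.1 at -0.037, -0.012 and -0.016. With voom and quality weights SIRT2 was at -0.089, SIRT5 at -0.018, SIRT6 at -0.069 and SIRT7 at -0.030. With 1 sample left out SIRT1 lay between -0.040 and 0.026, SIRT2 between -0.102 and 0.065, SIRT5 between -0.019 and 0.121, SIRT6 between -0.126 and 0.138 and SIRT7 between -0.043 and 0.246. The cause of these turns was not tested. The share of SIRT4 in the family was 0.762% and 37.9% of the summed counts, which are not per length, and moved by less than 1 SD with counts per kb.

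With voom and quality weights 3 genes of NAD synthesis, 1 other NAD consumer, 1 zinc-dependent deacetylase and 4 targets of the other sirtuins passed, and without AdSirt4 replicate 1 these were 1, 1, 1 and 5, with 0 when another sample was left out. DESeq2 called 2 targets of the other sirtuins. For the 34 genes that the naming rule gave outside the family, 558 of 609 results kept their direction and side of the threshold, 37 passed in the alternative only, 10, all of ADAMTS1, no longer passed, and 4 turned: RPLP0 to -0.077 with voom and quality weights, U2AF2 to -0.001 with the length offset and block, and both with 1 sample left out, where RPLP0 lay between -0.106 and 0.262 and U2AF2 between -0.022 and 0.087. Each arm with a sample left out holds 2 samples. With 31 to 57 control counts, depth limits the fold of SIRT4 more than that of any other member.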
